A study of Mus musculus with 32 samples.

Results

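The 8 genes described here are the Notch receptors Notch1, Notch2, Notch3 and Notch4, the ligand Jag1 and the targets Hes1, Hey1 and Heyl, taken by symbol from the 31053 genes of the count matrices. All 8 were found. The samples were osteogenic cultures of bone marrow stromal cells (BMSC-OBs) of Diversity Outbred mice, an outbred stock derived from several inbred founder strains, and cells of 77 mice had been combined into 16 pools of 4 or 5 mice before single-cell RNA-seq. There was no treated or mutant group, all pools having had the same osteogenic medium, so the comparisons are between cell types within pools. Each pool was sequenced in 2 runs, and run HGYVNCCX2 is used unless the second is named. The mouse that each cell came from was not used.

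Notch is a cell-contact pathway. A ligand such as Jag1 on one cell binds a Notch receptor on its neighbour, ADAM proteases and then gamma-secretase cut the receptor, and the freed intracellular part enters the nucleus, where it joins RBPJ and Mastermind proteins on target genes. Hes1, Hey1 and Heyl are classical targets and encode basic helix-loop-helix repressors. In the skeleton the pathway is known for restraining osteoblast differentiation of progenitors, in vessels Notch4 and the ligand Dll4 are known from endothelium and Notch3 from mural cells, and in blood lineages Notch1 and Notch2 act in lymphocyte and myeloid development.

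No cell annotation was used. Cells were gated on marker genes, and a class is called "-like" after its markers. None of the markers is a member or one of the further pathway genes described below. The LMP markers were Col3a1, Timp3, Tagln, Acta2 and Aspn, and Egfl7 was among the endothelial ones. The mesenchymal classes carry the names the field uses for such cultures, namely late mesenchymal progenitors (LMP), marrow adipogenic lineage progenitors (MALP), osteoblast progenitors (OBP), mature osteoblasts (OB1 and OB2) and osteocyte-like cells (Ocy). Of 88909 cells that passed quality filters, 47025 received a class. These were 9095 LMP-like, 8471 MALP-like, 7438 OBP-like, 4998 OB1-like, 4937 OB2-like and 3658 Ocy-like cells, 74 endothelial-like and 120 glial-like cells, and 4891 macrophage-like, 520 monocyte-like, 772 osteoclast-like, 1511 granulocyte-like, 433 T-cell-like and 107 B-cell-like cells. The cultures thus held a leukocyte compartment of 18205 cells beside a mesenchymal one of 56549 cells. Between 476 and 940 cells of each mesenchymal class lay within 0.1 of a limit of the class score, so each class is a range of a score.

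Between 3460 and 9429 barcodes and between 53990642 and 100777353 UMIs (unique molecular identifiers, counting molecules) were read per pool. Pool 13 had the lowest median of 2782 UMIs per kept cell, against 15273 in the deepest pool, and results are given without it where that changes a call. Of the barcodes, 98.2% were also called in the second run of the same pool, so the 2 runs hold the same cells and are not replicates, and 1521 of 106313 barcode sequences occurred in more than 1 pool. Median depth differed between classes, from 4084 UMIs in granulocyte-like to 20613 in OBP-like cells. A level is therefore given as UMIs per 10000 UMIs of a class in a pool, averaged over pools with at least 10 cells of the class, and shares of cells with a UMI are given after thinning cells to 3000 UMIs. Cells with fewer UMIs were left out of the shares, among them 1093 LMP-like, 1288 MALP-like, 1056 macrophage-like, 567 granulocyte-like and 134 T-cell-like cells. Levels are not compared between genes. In leukocyte-like classes the 9 general mesenchymal markers, collagens and other matrix genes, still had medians of 16.6 to 30.6 UMIs per 10000, against 83.5 to 1173 in mesenchymal classes, and endothelial-like and glial-like cells had 53.5 and 68.4. The part of free RNA and mixed droplets in the levels of members in these classes was not tested.

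Notch1 was highest in monocyte-like and macrophage-like cells. Its level was 2.06 ± 0.75 UMIs per 10000 (SD, n = 9 pools) in monocyte-like cells, with a lowest pool of 0.721, a median of 2.28 and a highest pool of 3.30. In macrophage-like cells it was 1.89 ± 0.55 (SD, n = 16 pools) and ranged from 1.02 through a median of 2.04 to 2.64. These neighbours in the order overlapped, the monocyte-like value being the higher in only 2 of the 9 pools with both. The 3 pools with enough endothelial-like cells had 1.58 (pool 9), 1.83 (pool 10) and 1.47 (pool 18). Granulocyte-like cells had 1.17 ± 0.51 (SD, n = 13). Among mesenchymal classes MALP-like cells were highest at 0.473 ± 0.102 (SD, n = 16), followed by LMP-like cells at 0.242 ± 0.052, and OBP-like cells were lowest at 0.111 ± 0.029. After thinning, a Notch1 UMI was found in 38.6% of macrophage-like and 3.45% of OBP-like cells (53.7% and 18.0% unthinned).

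Notch2 was the most even of the receptors. Its level was 0.501 ± 0.159 (SD, n = 9) in monocyte-like, 0.491 ± 0.098 (SD, n = 16) in macrophage-like, 0.401 ± 0.095 in MALP-like, 0.372 ± 0.135 (n = 15) in osteoclast-like and 0.331 ± 0.052 in LMP-like cells, and between 0.248 and 0.288 in the osteogenic classes OBP-like, OB1-like, OB2-like and Ocy-like. Down to the osteogenic classes each neighbour in that order lay within 1 SD of the next. In LMP-like cells the lowest, median and highest pools were 0.233, 0.324 and 0.423. Endothelial-like cells had 0.0352, 0.0522 and 0.333 in pools 9, 10 and 18, so pool 18 stood above the other 2. These values rest on 7 UMIs over the 3 pools. A mean of 8.33% ± 1.67 (SD, n = 3) of the cells had a Notch2 UMI unthinned, and 0 cells had one after thinning.

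Notch3 was high in 3 mesenchymal classes and was not graded along the osteogenic order. It was highest in MALP-like (0.240 ± 0.074, SD, n = 16), OB2-like (0.212 ± 0.041, n = 14) and LMP-like cells (0.188 ± 0.039, n = 16), lower in OB1-like cells (0.0853 ± 0.0440, n = 16), and lowest in OBP-like (0.0507 ± 0.0150) and Ocy-like cells (0.0459 ± 0.0282). By pool, LMP-like cells ranged from 0.101 through a median of 0.191 to 0.248, and OBP-like cells from 0.0201 through 0.0528 to 0.0763, so the 16 pools of the 2 classes did not overlap. Endothelial-like cells had 0 (pool 9), 0 (pool 10) and 0.200 (pool 18), a mean of 0.0666 that rests on 3 UMIs in 1 of the 10 cells of pool 18. Over all 74 endothelial-like cells, those of smaller pools included, Notch3 had 21 UMIs, or 0.159 per 10000 (0.0986 to 0.243, counting error only). Over all LMP-like cells it was at 0.188. Over all endothelial-like cells the mural markers were at 2.12 (Mcam, in 66.2% of the cells), 0.736 (Rgs5, 2.70%), 0.250 (Pdgfrb, 5.41%), 0.144 (Kcnj8, 13.5%), 0.114 (Abcc9, 9.46%) and 0.0531 (Cspg4, 9.46%), and Myh11 had 0 UMIs. Their part in the endothelial-like Notch3 values was not tested. Of the leukocyte-like classes, osteoclast-like cells had the highest mean, 0.0463 ± 0.0835 with 7 of 15 pools at 0, near that of Ocy-like cells, and the others had at most 0.0188. The share of cells with a UMI after thinning was 5.61% in LMP-like, 6.58% in MALP-like and 6.56% in OB2-like cells, against 0.511% in macrophage-like cells (median depth 4916 UMIs before thinning, 18387 in LMP-like cells). Unthinned, these shares were 25.4%, 18.3%, 25.6% and 0.587%. Notch3 is known from mural cells, and of the 7 mural markers Pdgfrb, a receptor shared with stromal progenitors, was at 1.26 UMIs per 10000 over all LMP-like cells and 1.61 over MALP-like cells. Of the other 6, in the same order, Cspg4 was at 0.236 and 0.0484, Rgs5 at 0.109 and 0.0797, Myh11 at 0.0175 and 0.00330, Mcam at 0.0668 and 0.0954, Abcc9 at 0.0168 and 0.0356, and Kcnj8 at 0.00218 and 0.00153. The summed mural list had medians per cell of 0.818 to 2.01 in the 6 mesenchymal classes, and its part in the Notch3 pattern was not tested.

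Notch4 was an endothelial gene in these cultures. The 3 endothelial-like pools had 0.950 (pool 9), 1.2 (pool 10) and 1.13 (pool 18) UMIs per 10000, a mean of 1.09 ± 0.13 (SD, n = 3). The next highest classes were glial-like at 0.0672, from pools at 0.134 and 0, and osteoclast-like at 0.0360 ± 0.0320 (n = 15), and the 6 mesenchymal classes had between 0.00421 and 0.00805. No Notch4 UMI was counted in monocyte-like, T-cell-like or B-cell-like cells, where 3 UMIs over the class would give 0.00746, 0.0116 and 0.0398 UMIs per 10000 (counting error only).

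The promoters of Notch1, Notch3 and Notch4 are printed because these receptors had different orders of the classes. Each is the RefSeq window of 250 bases before to 50 after the gene's start in GRCm38.p6, 5′ to 3′ on the gene's strand. Capitals mark matches, on either strand, to the GC box GGGCGG in Notch1 and Notch3, and to the AP-1 site TGANTCA in Notch4.
Notch1, chr2:26503773-26504072, minus strand: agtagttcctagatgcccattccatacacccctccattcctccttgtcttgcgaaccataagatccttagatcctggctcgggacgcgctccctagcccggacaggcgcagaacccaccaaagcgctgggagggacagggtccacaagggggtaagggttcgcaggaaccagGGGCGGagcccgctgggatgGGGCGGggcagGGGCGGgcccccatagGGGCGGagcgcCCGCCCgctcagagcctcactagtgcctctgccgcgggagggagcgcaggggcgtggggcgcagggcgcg
Notch3, chr17:32166841-32167140, minus strand: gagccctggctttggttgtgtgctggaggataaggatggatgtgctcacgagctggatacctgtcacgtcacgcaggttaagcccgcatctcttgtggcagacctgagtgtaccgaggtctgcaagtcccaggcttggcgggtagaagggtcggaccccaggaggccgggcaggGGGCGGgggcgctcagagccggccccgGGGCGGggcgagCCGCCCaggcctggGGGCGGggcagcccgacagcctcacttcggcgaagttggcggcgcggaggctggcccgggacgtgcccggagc
Notch4, chr17:34564045-34564344, plus strand: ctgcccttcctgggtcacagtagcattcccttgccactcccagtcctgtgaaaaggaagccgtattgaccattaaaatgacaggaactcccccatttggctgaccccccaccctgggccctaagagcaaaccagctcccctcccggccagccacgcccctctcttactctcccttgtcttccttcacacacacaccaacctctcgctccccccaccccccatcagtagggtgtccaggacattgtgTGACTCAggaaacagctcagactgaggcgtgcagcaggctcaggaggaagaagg
The Notch1 window held 5 GC boxes and the Notch3 window 4, and the Notch4 window held none. The windows of Notch2 and Jag1, not printed, held 7 and 0. Of all 32851 promoter windows, 35.7% held a GC box. The Notch4 window held 1 AP-1 match, beginning 4 bases before the start, and 7.81% of all windows held one. The core of the RBPJ site, TGGGAA, and the GATA site AGATAA were searched in the same way, were in 25.6% and 11.2% of all windows, and were in none of the windows of the 5 members with an entry (Notch1, Notch2, Notch3, Notch4 and Jag1). The matches did not overlap each other. The windows were 68.3% (Notch1), 70.0% (Notch3) and 58.3% (Notch4) G and C, against a median of 52.7% over all windows. In the GENCODE annotation of GRCm38, Notch1 lies at chr2:26457903-26516663 (minus strand), so that its RefSeq window is inside that span, Notch3 at chr17:32120820-32166852 (minus), Notch4 at chr17:34564268-34588503 (plus) and Notch2 at chr3:98013527-98150361 (plus). Each receptor gene is overlapped by at least 1 other annotated gene, on the same strand only for Notch1 (the microRNA gene Mir6996) and Notch2 (Gm42819 and Gm42820). Jag1 (chr2:137081456-137116644, minus), Hes1 (chr16:30064384-30067796, plus), Hey1 (chr3:8663359-8667256, minus) and Heyl (chr4:123233556-123249875, plus) have no overlapping gene there.

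The ligand Jag1 was highest in glial-like cells, and no pool of another class exceeded 0.943 UMIs per 10000. The 2 pools with enough of these cells had 4.13 (pool 2) and 3.65 (pool 11) UMIs per 10000. Endothelial-like cells had 0.422 (pool 9), 0.782 (pool 10) and 0.733 (pool 18). MALP-like cells followed at 0.471 ± 0.101 (SD, n = 16), with a lowest pool of 0.326, a median of 0.451 and a highest pool of 0.670, and no LMP-like pool reached that lowest value, the range there being 0.146 to 0.295. Macrophage-like cells had 0.384 ± 0.101 (n = 16). In the osteogenic classes OB1-like cells had 0.240 ± 0.049, and OBP-like, OB2-like and Ocy-like cells 0.117, 0.117 and 0.140. After thinning, 62.7% of glial-like, 12.8% of MALP-like and 10.4% of macrophage-like cells had a Jag1 UMI, against 0.729% of T-cell-like cells. Unthinned, these shares were 77.6%, 31.3%, 15.9% and 2.54%.

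Of the targets, Hes1 was found across the mesenchymal classes and was highest in Ocy-like cells, at 5.85 ± 1.61 UMIs per 10000 (SD, n = 16), with a lowest pool of 3.41, a median of 5.63 and a highest pool of 9.00. The other 5 mesenchymal classes had means of 3.16 to 4.20. Glial-like cells were next, at 3.01 (pool 2) and 7.99 (pool 11), against 7.68 and 5.50 in Ocy-like cells of those pools, so the order of the 2 classes turned between pools. Endothelial-like cells had 2.04 (pool 9), 2.76 (pool 10) and 6.00 (pool 18). Leukocyte-like classes were lower, from 0.245 ± 0.176 (n = 13) in granulocyte-like to 0.968 ± 0.664 (n = 15) in osteoclast-like cells. Macrophage-like cells had 0.706 ± 0.245, or 15.7% of thinned cells with a UMI, against 47.8% of LMP-like cells (23.5% and 75.3% unthinned).

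Hey1 had its highest class means in endothelial-like and MALP-like cells, whose order was not the same in every pool. Endothelial-like cells had 0.633 (pool 9), 0.730 (pool 10) and 0.533 (pool 18), and MALP-like cells of these pools 1.03, 0.538 and 0.608, so endothelial-like cells were the higher in 1 of 3. Over all pools MALP-like cells had 0.417 ± 0.219 (SD, n = 16), with a lowest pool of 0.158, a median of 0.361 and a highest pool of 1.03. The other mesenchymal classes had 0.225 to 0.360, in an order in which no neighbours were more than 1 SD apart. All leukocyte-like classes were at or below 0.0539. Heyl had its highest class mean in glial-like cells, with 0.288 (pool 2) and 0.189 (pool 11). MALP-like cells of these pools had 0.0625 and 0.158, but the highest MALP-like pool reached 0.246. After thinning, 4.55% ± 6.43 (SD, n = 2) of glial-like cells had a Heyl UMI. Next were MALP-like cells at 0.115 ± 0.060 (SD, n = 16) and OB1-like cells at 0.0800 ± 0.0410. Of the mesenchymal classes OBP-like cells were lowest, at 0.0178 ± 0.0083. No Heyl UMI was counted in the 37 endothelial-like cells of pools 9, 10 and 18, where 3 UMIs over the group would give 0.0479, and after thinning 2 of all 73 endothelial-like cells deep enough had one.

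**Figure D1:**
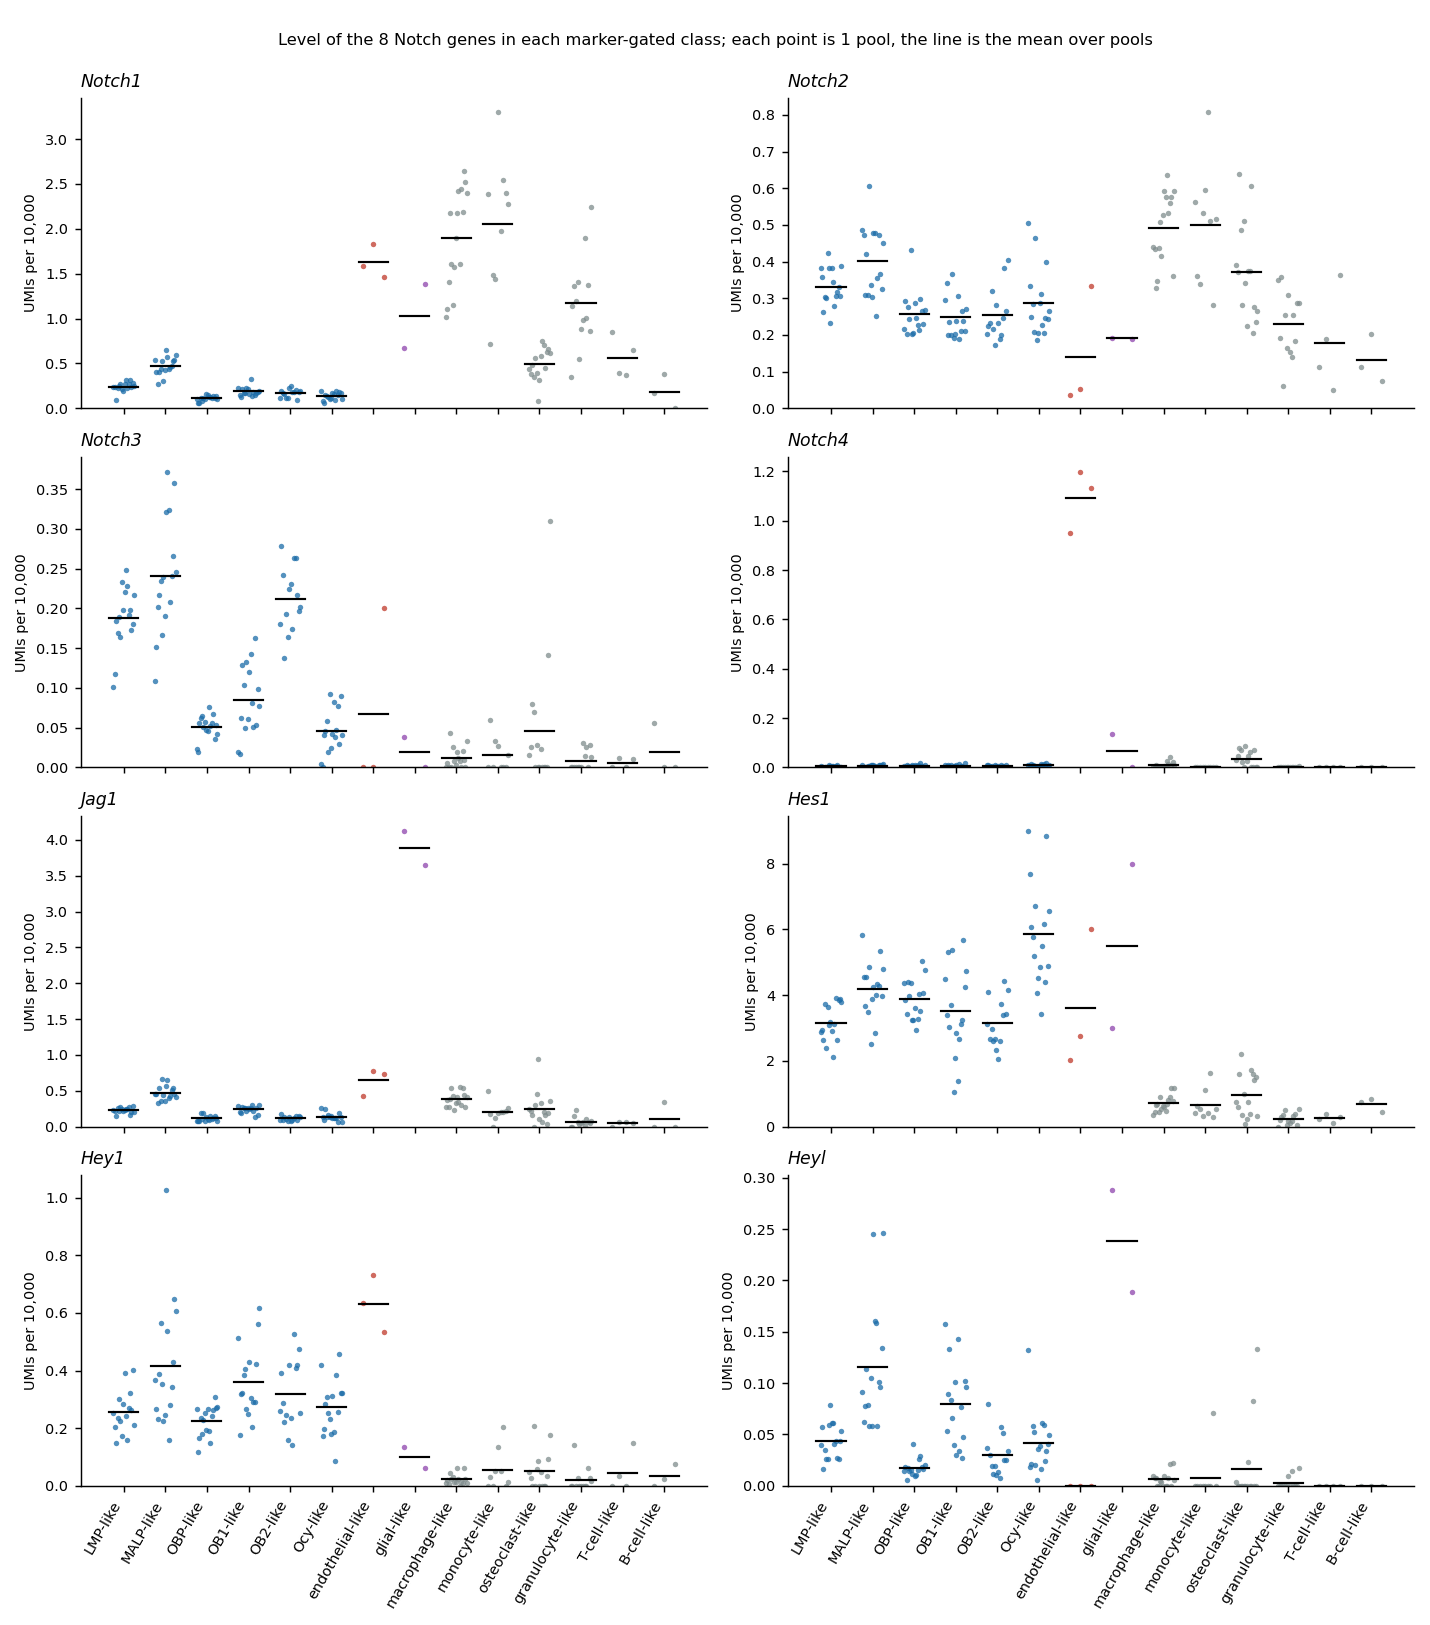
Level of each gene in UMIs per 10000 (y axis, linear, one scale per gene) in the 14 marker-gated classes (x axis), 1 point per pool with at least 10 cells and a line at the mean over pools; blue, mesenchymal; red, endothelial-like; purple, glial-like; grey, leukocyte-like. Notch4 points stand above 0.9 only in endothelial-like cells, Notch3 is high in LMP-like, MALP-like and OB2-like cells, and Jag1 is above 3.6 only in glial-like cells.

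**Figure D2:**
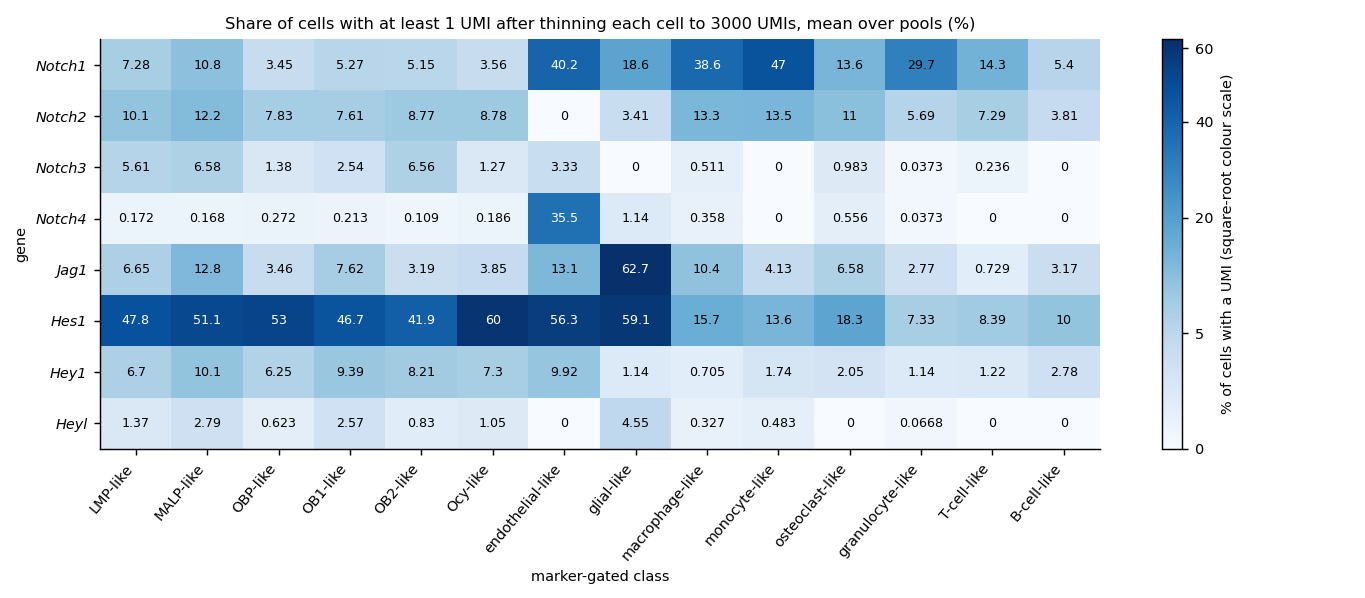
Percent of cells with at least 1 UMI of each gene (rows) in each class (columns) after cells were thinned to 3000 UMIs, shallower cells left out, as the mean over pools; the colour scale is the square root of the percent. Hes1 was found in 41.9% to 60.0% of the cells of each mesenchymal class, whereas Notch3 and Heyl were found in at most 6.58% and 2.79% of the cells of any of these classes.

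The classes were compared with edgeR's quasi-likelihood test on UMI sums per pool and class, with the pool as a block and Benjamini-Hochberg adjustment over all genes tested in the comparison. Fold changes here are on edgeR's TMM scale, which aims to set the bulk of genes to no change. On that scale the median log2 fold change was -0.174 in endothelial-like and -0.0991 in macrophage-like against LMP-like cells. In the other comparisons it was between -0.00656 and 0.0062. On the scale of total UMIs, that of the levels above, the median gene was shifted by between -0.331 and 0.237 on the log2 scale, and directions or calls of members that differ between the scales are named. Numbers of pools higher or lower, and overlaps between classes, are also of those levels. They are thus on the total UMI scale and share its shift, also where they stand beside a TMM fold change. The classes were defined by expression in the same cells and differ in many genes, so each count is set beside the share of all genes called. Some genes passed the filter on low counts only through the libraries of the class where they were higher. That selects toward a difference, so a call of such a gene is no support. This holds for Heyl in the 4 osteogenic comparisons, for Notch3, Notch4 and Heyl in endothelial-like cells, for Notch3 and Hey1 in macrophage-like cells and for Notch2 and Jag1 in T-cell-like cells, and the counts below are also given without them.

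In MALP-like against LMP-like cells, the adipogenic branch against late progenitors, Jag1, Notch1 and all 3 targets were higher. Heyl was higher by 1.13 ± 0.17 on the log2 scale (SE, edgeR, adjusted p = 3.80e-06, higher in 15 of 16 pools), Jag1 by 0.79 ± 0.07 (adjusted p = 7.41e-10, 16 of 16 pools) and Notch1 by 0.73 ± 0.06 (adjusted p = 6.87e-10, 16 of 16 pools). Hey1 was higher by 0.40 ± 0.11 (edgeR, adjusted p = 0.00258) and Hes1 by 0.16 ± 0.06 (adjusted p = 0.0291), a call that was lost without pool 13 (adjusted p = 0.0566). Notch2 and Notch3 had log2 fold changes of 0.02 ± 0.05 and 0.09 ± 0.07 and did not pass the test, but on the scale of total UMIs they did, at 0.26 and 0.33. On that scale Notch2 was higher in 14 and Notch3 in 15 of 16 pools. The 5 of 7 members called, all higher, stood against 71.4% of 11780 genes called, 34.9% higher and 36.5% lower. On the total UMI scale 73.6% of calls were higher, against 48.9% on the TMM scale. Notch4 was not tested here because too few UMIs were counted.

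From LMP-like to OBP-like cells, the first step of the osteogenic branch, Notch3 fell most of the members, by 1.60 ± 0.07 on the log2 scale (SE, edgeR, adjusted p = 7.33e-15), and was lower in 16 of 16 pools. Heyl fell by 0.98 ± 0.16, Notch1 fell by 0.77 ± 0.08 and Jag1 fell by 0.66 ± 0.09, each lower in at least 15 of 16 pools (edgeR, largest adjusted p = 6.66e-06). Of these, Heyl passed the filter on low counts only through the LMP-like libraries, so its call is no support. Hes1 went the other way and was higher by 0.62 ± 0.05 (adjusted p = 8.22e-11, 16 of 16 pools). Hey1 (0.16 ± 0.09) and Notch2 (-0.05 ± 0.05) did not pass. On the scale of total UMIs the fold change of Hey1 was -0.17 and did not pass either, while that of Notch2 was -0.37 and did. Of the 7 mural markers, 4 were at a lower level over all OBP-like than over all LMP-like cells and Rgs5, Cspg4 and Abcc9 at a higher one, and their part was not tested. The 5 of 7 members called stood against 76.8% of 11896 genes, the 1 higher against 38.0% and the 4 lower against 38.9%. Without Heyl, 4 of 6 were called. On the total UMI scale 23.9% of calls were higher, against 49.4% here.

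OB1-like cells had more Jag1, Notch1, Hey1 and Notch3 than OBP-like cells. Jag1 was higher by 1.19 ± 0.10 on the log2 scale, Notch1 by 0.91 ± 0.09, Hey1 by 0.84 ± 0.08 and Notch3 by 0.82 ± 0.13 (SE, edgeR, largest adjusted p = 7.56e-06). Heyl was higher by 2.29 ± 0.21 but passed the filter on low counts only through the OB1-like libraries, so its call is no support. Jag1, Notch1 and Hey1 were higher in 16 of 16 pools, Heyl in 15 and Notch3 in 12. Notch2 (0.12 ± 0.05) and Hes1 (-0.02 ± 0.11) did not pass, and the fold change of Notch2 was -0.07 on the scale of total UMIs. The 5 of 7 called stood against 53.7% of 10934 genes, 27.8% higher and 25.9% lower. Without Heyl, 4 of 6 were called. Of the calls, 22.7% were higher on the total UMI scale and 51.8% on the TMM scale. Of the 7 mural markers, Rgs5 was at 2.00 UMIs per 10000 over all OB1-like and 0.185 over all OBP-like cells and Mcam at 0.0653 and 0.0401, Pdgfrb (0.204 and 0.185) and Myh11 (0.000933 and 0.000841) were near each other, and Cspg4 (0.571 and 0.823), Abcc9 (0.0257 and 0.0344) and Kcnj8 (0.000583 and 0.00116) were lower in OB1-like cells. The part of these genes in the result was not tested.

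OB2-like and OB1-like cells, both named after mature osteoblasts, differed in opposite directions in receptor and ligand. The OB2 markers were Bsg, Ndrg1, Ero1l and Mt1. The summed OB1 markers, Bglap among them, had a median of 36.1 UMIs per 10000 in OB2-like cells. That median was 187 in OB1-like and 45.6 in OBP-like cells, so the markers do not show OB2-like cells as mature. Notch3 was higher in OB2-like cells by 1.16 ± 0.12 (SE, edgeR, adjusted p = 1.69e-07, 14 of 14 pools), whereas Jag1 was lower by a log2 fold change of -1.07 ± 0.14 (adjusted p = 2.45e-06), in 13 of 14 pools. Heyl had -1.40 ± 0.23 and was also lower in 13 of 14 pools. It passed the filter on low counts only through the OB1-like libraries, so its call is no support. The other 4 tested members did not pass, Notch2 having -0.04 ± 0.08 (0.06 on the scale of total UMIs) and Hey1 having -0.28 ± 0.13 (adjusted p = 0.0840, but 0.0360 without pool 13, 0.0335 without the low-count filter and 0.0420 without the deepest cells). Of the mural markers, Cspg4 (1.26 UMIs per 10000 over all OB2-like and 0.571 over all OB1-like cells), Pdgfrb (0.272 and 0.204), Abcc9 (0.0321 and 0.0257), Myh11 (0.00145 and 0.000933) and Kcnj8 (0.00363 and 0.000583) were at a higher level in OB2-like cells and Rgs5 (0.315 and 2.00) and Mcam (0.0454 and 0.0653) at a lower one. Their part in the Notch3 result was not tested. The 3 of 7 called stood against 57.7% of 10715 genes, the 1 higher against 29.2% and the 2 lower against 28.5%. Without Heyl, 2 of 6 were called. On the total UMI scale 63.7% of calls were higher, against 50.7%.

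Against OB1-like cells, Ocy-like cells had more Hes1 and less of the other called members. Hes1 was higher by 0.63 ± 0.09 (SE, edgeR, adjusted p = 1.62e-06), in 16 of 16 pools. Notch3 fell by 1.04 ± 0.13, Heyl fell by 1.03 ± 0.18, Jag1 fell by 0.89 ± 0.10, Notch1 fell by 0.54 ± 0.10 and Hey1 fell by 0.50 ± 0.09, each in at least 13 of 16 pools (edgeR, largest adjusted p = 0.000101). Of these, Heyl passed the filter on low counts only through the OB1-like libraries, so its call is no support. Notch2 did not pass at 0.08 ± 0.07, but did at 0.22 on the scale of total UMIs and at 0.19 in the second run (edgeR, adjusted p = 0.0160). Of the 7 mural markers, 6 were at a lower level over all Ocy-like than over all OB1-like cells and Cspg4 at a higher one (1.95 and 0.571), and their part was not tested. The 6 of 7 called stood against 47.3% of 9829 genes, the 1 higher against 22.5% and the 5 lower against 24.8%. Without Heyl, 5 of 6 were called. On the total UMI scale 75.2% of calls were higher, against 47.6%.

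Hes1 was thus higher and Notch3 lower both in OBP-like than in LMP-like and in Ocy-like than in OB1-like cells. The comparisons share classes, OB1-like cells being in 3 of them, and their values are therefore given side by side only.

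**Figure D3:**
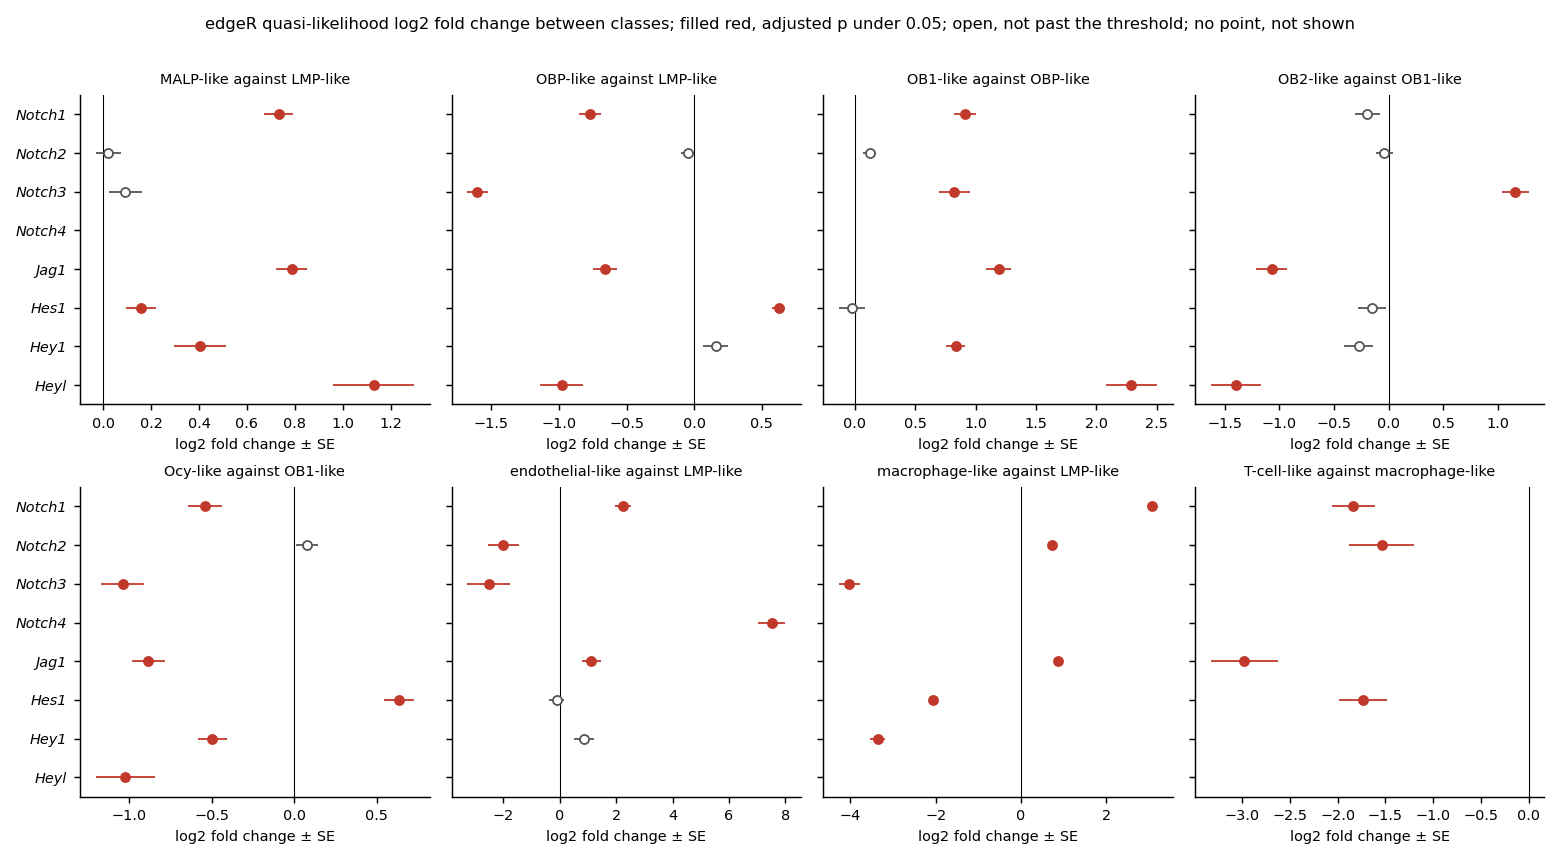
Log2 fold change of each member (x axis, ± SE, edgeR with the pool as a block, TMM scale) in the 8 comparisons, each panel with its own x axis; filled red points passed an adjusted p of 0.05 and open points did not. Members that passed the filter on low counts only through the class where they were higher, such as Notch4 in endothelial-like cells, are drawn as well. Heyl in endothelial-like cells is not drawn because it had 0 UMIs there, and members without a point were not tested.

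Endothelial-like cells were tested against LMP-like cells in only 3 pools, with 15, 12 and 10 endothelial-like cells. Notch4 was at 1.09 ± 0.13 UMIs per 10000 (SD, n = 3), from 67 UMIs, against 0.00458 ± 0.00127 in LMP-like cells of these pools, from 18 UMIs, a description with no test. Notch1 was higher by 2.24 ± 0.27 on the log2 scale (SE, edgeR, adjusted p = 1.17e-08), in 3 of 3 pools with no overlap between the classes. Jag1 was higher by 1.12 ± 0.35 (adjusted p = 0.0162), while Notch2 (-2.0 ± 0.54, adjusted p = 0.00469) and Notch3 (-2.52 ± 0.76, adjusted p = 0.0124) were lower, from 7 and 3 UMIs in the endothelial-like cells. The calls of these 3 did not hold when pool 10 was left out (edgeR, adjusted p = 0.158 for Jag1, 0.0789 for Notch2 and 0.157 for Notch3), Notch2 and Notch3 were also lost without pool 9 (0.157 and 0.188) and Jag1 without pool 18 (0.103). Notch3 passed the filter on low counts only through the LMP-like libraries, so its call is no support. Over all 74 endothelial-like cells Notch3 was at 0.159 UMIs per 10000, against 0.188 over all LMP-like cells. Hey1 had 0.86 ± 0.34 (adjusted p = 0.0700, but 0.00891 on the scale of total UMIs, 0.0309 in the second run and 0.0444 with at least 5 cells), Hes1 did not pass (-0.11 ± 0.27, and 0.19 on the scale of total UMIs), and for Heyl, with 0 UMIs against 0.0586 UMIs per 10000 in the LMP-like counterparts, no fold is given (adjusted p = 0.0696). The 5 of 8 called stood against 21.2% of 11207 genes, the 3 higher against 8.33% and the 2 lower against 12.8%. Without the members that passed the filter only through 1 class, 3 of 5 were called. On the total UMI scale 56.7% of calls were higher, against 39.3%.

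Of the 6 members tested in macrophage-like against LMP-like cells, 4 passed the filter on low counts through both classes. All 4 were called, beside 84.4% of all genes. Notch1 was higher by 3.07 ± 0.11 on the log2 scale (SE, edgeR, adjusted p = 3.82e-18), Jag1 by 0.87 ± 0.11 (adjusted p = 6.29e-08) and Notch2 by 0.72 ± 0.08 (adjusted p = 2.79e-08). Notch3 fell by 4.02 ± 0.24, Hey1 fell by 3.36 ± 0.17 and Hes1 fell by 2.08 ± 0.09, each in 16 of 16 pools and with no overlap between the classes (edgeR, largest adjusted p = 1.05e-13). The receptors Notch1 and Notch2 and the target Hes1 thus went opposite ways between these classes. Notch3 and Hey1 had 28 and 61 UMIs over all macrophage-like pools and passed the filter only through the LMP-like libraries, so their calls are no support. Heyl, with 15, was not tested. With all pools, the 6 of 6 stood against 84.4% of 10848 genes, the 3 higher against 38.9% and the 3 lower against 45.5%. Without Notch3 and Hey1, 4 of 4 were called. Leaving out pool 13, 7 members were tested and 7 called, 3 higher and 4 lower, beside 9519 of 11409 genes called. The class through which the added member passed the filter was not counted without pool 13. With all pools, Heyl had counts high enough for the filter in 0 macrophage-like and 12 LMP-like pools, and Notch4 in 1 and 0. The added call is therefore taken as no support.

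T-cell-like cells were compared with macrophage-like cells in 4 pools. By pool (5, 6, 8 and 14), Notch1 was at 0.849, 0.389, 0.372 and 0.652 UMIs per 10000 in T-cell-like cells, below every macrophage-like value. Notch1 fell by 1.83 ± 0.22 on the log2 scale, Notch2 fell by 1.54 ± 0.34, Jag1 fell by 2.98 ± 0.35 and Hes1 fell by 1.73 ± 0.25 (SE, edgeR, largest adjusted p = 0.00184), in 4 of 4 pools each. Of these, Notch2 and Jag1 passed the filter on low counts only through the macrophage-like libraries, so their calls are no support. The 4 of 4 tested, all lower, stood against 57.8% of 8040 genes called, 27.2% higher and 30.6% lower. Without Notch2 and Jag1, 2 of 2 were called.

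The cells in which Notch3 was seen were then set against cells of the same class and pool in which it was not. Cells were thinned to 5000 UMIs in 20 random draws, which left 701 LMP-like cells with and 6905 without a Notch3 UMI and 660 and 5777 MALP-like cells on average, shallower cells being left out, and the shares of cells with a UMI of a target or of Jag1 were averaged over draws. In MALP-like cells Hey1 was found in 22.5% ± 9.15 (SD, n = 16 pools) of cells with and 14.8% ± 6.57 of cells without a Notch3 UMI, higher in 15 of 16 pools (exact permutation test over pools, two-sided, p = 9.16e-05, adjusted over 8 tests 0.000488). In LMP-like cells it was found in 15.3% and 10.2%, higher in 12 of 15 pools (exact permutation, adjusted p = 0.00244), pool 13 having too few cells. Heyl was found in 4.76% against 1.73% of LMP-like cells (10 of 15 pools, exact permutation, adjusted p = 0.00574) and in 6.95% against 4.15% of MALP-like cells (11 of 16 pools, adjusted p = 0.0165). The ligand Jag1 was found in 15.2% against 10.3% of LMP-like cells (14 of 15 pools, exact permutation, adjusted p = 0.000488) and in 22.0% against 19.3% of MALP-like cells (11 of 16 pools, adjusted p = 0.0277). Hes1 was found in 61.9% against 58.4% of LMP-like cells (12 of 15 pools, exact permutation, adjusted p = 0.0153) and in 66.1% against 60.8% of MALP-like cells (12 of 16 pools, adjusted p = 0.0284). All 8 differences were positive as means over draws, but those of Hes1 and Jag1 in MALP-like cells were not called in the second run (exact permutation, adjusted p = 0.219 and 0.135). In the lowest draw the difference was -0.71 percentage points for Hes1 in LMP-like cells and -0.15 for Jag1 in MALP-like cells. Genes other than these 4 were not examined in this way, so whether such differences are particular to them was not tested. With a single draw 5 of the 8 were not called, and only Heyl and Jag1 in LMP-like cells and Hey1 in MALP-like cells were. Before thinning, cells with a Notch3 UMI had median depths of 18534 in LMP-like and 10493 in MALP-like cells, against 20740 and 10954. Differences between cell states inside a class move with such shares, and their part was not tested.

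**Figure D4:**
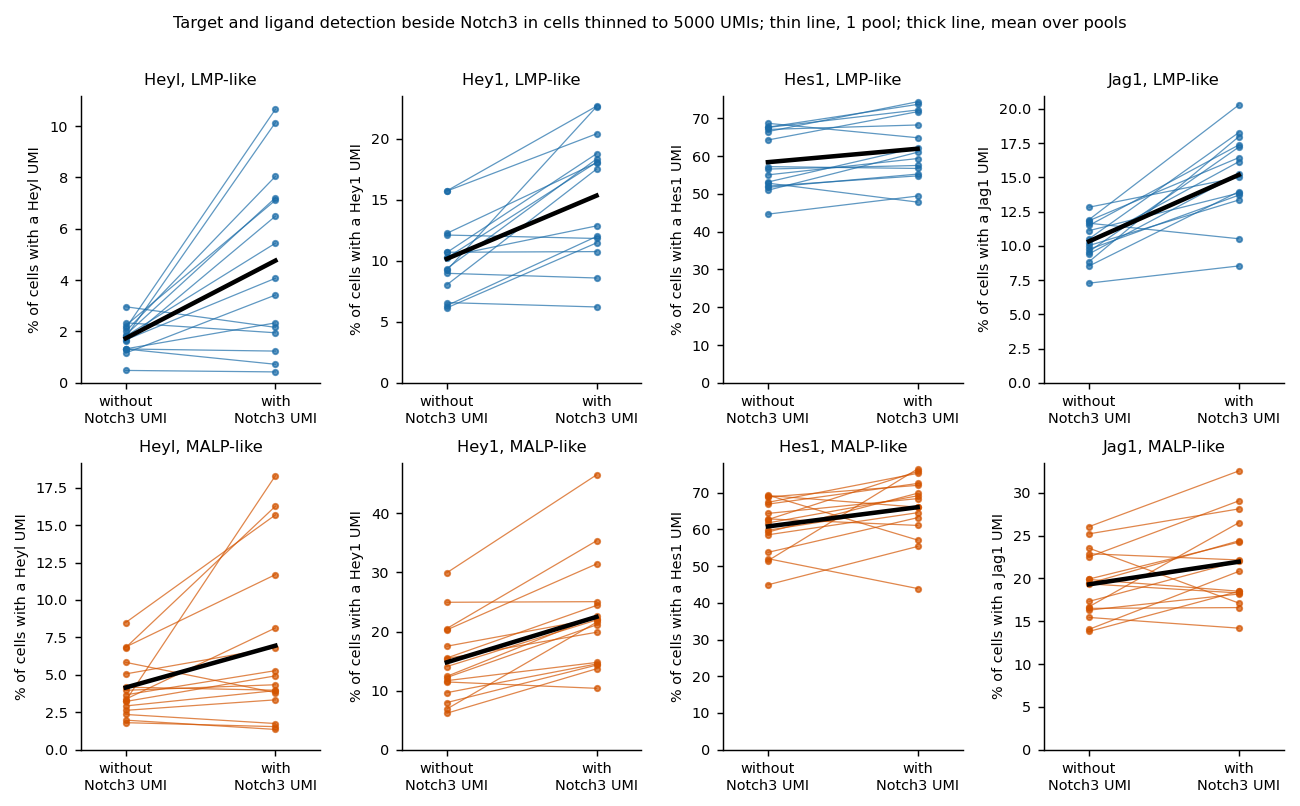
Percent of cells with a UMI of Heyl, Hey1, Hes1 or Jag1 (y axis) among cells without and with a Notch3 UMI (x axis), in LMP-like (top) and MALP-like cells (bottom) thinned to 5000 UMIs; each thin line joins the 2 values of 1 pool and the thick line the means. Most lines rise, and those of Hey1 in MALP-like cells rise in 15 of 16 pools.

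Pools differed in the members, and the genes and pools named here were chosen after their values were seen. Over all genes, deviations from the class mean correlated between classes of the same pool with medians of 0.262 to 0.512 in the 5 comparisons of mesenchymal classes. Notch3 was lowest or second lowest in pools 1 and 2 in each of the 5 mesenchymal classes that these pools had, with 0.101 and 0.117 UMIs per 10000 in LMP-like cells. Both pools held fewer than 10 OB2-like cells. Notch1 was lowest or second lowest in pool 3 in 5 of 6 mesenchymal classes, with 0.0906 in LMP-like cells against 0.188 in the next pool. Hes1 was lowest or second lowest in pool 10 in 6 of 6 classes, and Hey1 in pool 11 in 6 of 6. Notch2 was highest or second highest in pool 6 in 5 of 6. Each pool held different mice, so mice, culture and library cannot be told apart here.

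Across the 16 pools, LMP-like levels of Notch2, Notch3 and Jag1 were set against those of the 3 targets, 9 relations in all (log2 levels, 100000 permutations). None passed adjustment. The largest Pearson correlation was that of Jag1 and Heyl (r = 0.47, permutation p = 0.0648, adjusted 0.570), with a Spearman rho of 0.27 (permutation p = 0.304, adjusted 0.827), and r was -0.07 after leaving out the 2 pools farthest in Jag1, so it rests on those pools. Notch3 and Heyl had r = 0.19 (permutation p = 0.488, adjusted 0.953) and rho = 0.52 (permutation p = 0.0422, adjusted 0.380), and r was 0.63 without the 2 farthest pools in Notch3. Leaving out the 2 farthest pools also moved r from 0.13 to 0.71 for Notch2 and Heyl and from -0.12 to -0.50 for Notch3 and Hes1, so these values rest on which pools enter.

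The rest of the pathway was described with 46 further genes in 6 lists by role. In macrophage-like against LMP-like cells all 10 genes of receptor cleavage (ADAM proteases, gamma-secretase subunits and furin) were higher, with a median log2 fold change of 1.22 against -0.0991 over all genes, of which 84.4% were called and 38.9% were higher. Adam17, a sheddase, was higher by 2.28 ± 0.06 and Aph1c, a gamma-secretase subunit, by 2.82 ± 0.12 (SE, edgeR, largest adjusted p = 5.25e-17). In T-cell-like cells 7 of the 10 were lower than in macrophage-like cells and none higher, with a median of -0.98, beside 57.8% of all genes called and 30.6% lower. Of the 10, Aph1b, Aph1c and Psen2 passed the filter on low counts only through the macrophage-like libraries. The calls of Aph1b and Aph1c, which were among the 7, are no support. The E3 ligase gene Dtx4 was higher by 5.20 ± 0.11 in macrophage-like cells, and Lfng, the Fringe that modifies Notch receptors, by 2.09 ± 0.09, while Dlk2 (-4.45 ± 0.33), a non-canonical ligand, and Numbl (-2.86 ± 0.14), a Numb homologue, were lower there (edgeR, largest adjusted p = 5.53e-12). Of these 4, all but Lfng passed the filter only through the class where they were higher. In T-cell-like cells Mfng, another Fringe, was higher by 2.87 ± 0.33 than in macrophage-like cells (edgeR, adjusted p = 9.38e-06), and passed the filter only through the T-cell-like libraries.

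Endothelial-like cells had 3 other pathway genes that were nearly absent from LMP-like cells. The ligand Dll4 was at 1.27, Mfng at 0.962 and the feedback regulator Nrarp at 0.852 UMIs per 10000, the mean of 3 pools, against 0.000338, 0.000169 and 0.00956 in LMP-like cells of these pools. They passed the filter on low counts only through the endothelial-like libraries and are given with no test. Dtx2, an E3 ligase gene, was higher by 1.52 ± 0.51, and Numbl (-2.57 ± 0.56) and Rbpj (-1.21 ± 0.30), the DNA-binding partner of the receptor, were lower (SE, edgeR, largest adjusted p = 0.0262), Numbl from 5 UMIs and having passed the filter only through LMP-like libraries. In all, 7 of 36 pathway genes tested were called, Dll4, Mfng, Nrarp and Numbl among them, beside the 21.2% of all genes.

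The second Jagged ligand, Jag2, was at 0.00268 UMIs per 10000 in LMP-like, 0.0173 in OBP-like, 0.0418 in OB1-like and 0.0617 in Ocy-like cells, and passed the filter in the comparisons of these neighbours only through the class where it was higher, so these levels are a description. In OB2-like cells it was lower than in OB1-like cells (-0.62 ± 0.18 on the log2 scale, SE, edgeR, adjusted p = 0.00637), at 0.0313 against 0.0461 in the 14 pools with both. In OBP-like against LMP-like cells, Adam10, the protease of the cut that follows ligand binding, was higher by 1.81 ± 0.06, Neurl1a, a ligand E3 ligase gene, by 1.56 ± 0.11 and Dtx4 by 1.43 ± 0.15, and Maml2 (-1.83 ± 0.10), a Mastermind coactivator, and Lfng (-1.66 ± 0.10) were lower (edgeR, largest adjusted p = 8.94e-09). Of 36 pathway genes tested in that comparison 20 were higher and 10 lower, beside 38.0% and 38.9% of all genes, but on the scale of total UMIs 10 were higher and 16 lower. OB2-like cells had more Rbpj than OB1-like cells, by 1.07 ± 0.09, more Neurl1a, by 1.31 ± 0.13, and more of the target Hey2, by 1.28 ± 0.25, and less Maml3 (-1.41 ± 0.14) and Fbxw7 (-1.18 ± 0.11), the ubiquitin ligase subunit of the receptor's intracellular part (edgeR, largest adjusted p = 0.000230). Nrarp was higher in OB1-like than in OBP-like cells by 1.14 ± 0.25 (edgeR, adjusted p = 0.000486). Nrarp had counts high enough for the filter in 14 OB1-like and 3 OBP-like pools, and Hey2 in 12 OB2-like and 2 OB1-like pools. Both thus passed mostly through the class where they were higher, so these 2 calls are no support. In MALP-like against LMP-like cells 14 of 33 tested genes were higher and 10 lower (24 and 3 on the scale of total UMIs), beside 34.9% and 36.5% of all genes, Dtx4 alone by more than 1 (1.29 ± 0.11, edgeR, adjusted p = 6.43e-10). In Ocy-like against OB1-like cells 5 of 32 were higher and 10 lower, beside 22.5% and 24.8% of all genes, none by that much, but on the scale of total UMIs 12 were higher and 5 lower. Neurl1a in OBP-like and Dtx4 in MALP-like cells also passed the filter only through the class where they were higher.

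**Figure D5:**
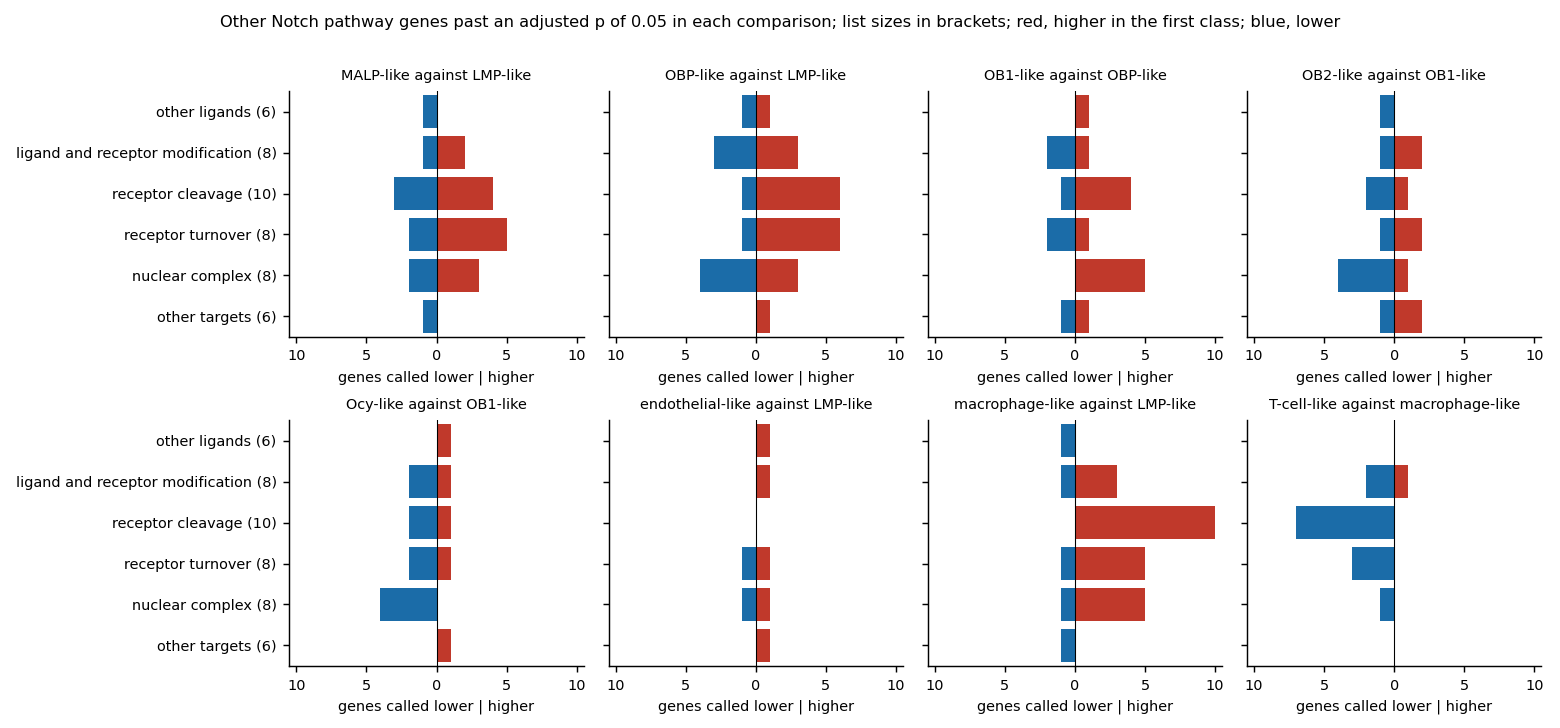
Number of other Notch pathway genes past an adjusted p of 0.05 (edgeR) in each comparison, by list (y axis, list size in brackets); red bars to the right count genes higher in the first-named class and blue bars to the left genes lower. The 10 receptor cleavage genes were all higher in macrophage-like than in LMP-like cells, and 7 of them were lower in T-cell-like than in macrophage-like cells. Genes that passed the filter on low counts only through 1 class are counted as well, such as Aph1b and Aph1c among these 7.

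The genes most like each member over the 14 class means were found among 5957 genes with at least 50 CPM in a class (Pearson's r of log2(CPM + 10), markers left out, a description in which all points share libraries). Notch4 was most like Ttc9, Mmrn2 and Kcne3 (r = 0.99 each), Jag1 like Gab1 (0.97), Erf (0.94) and Col27a1 (0.93), and Notch1 like Capza2, Aggf1 and Ptbp3 (0.93 each). The mean of Notch4 was 1.09 UMIs per 10000 in endothelial-like cells (n = 3 pools) and at most 0.0672 in other classes, so its correlations rest largely on that class. Jag1 had 3.89 in glial-like cells (n = 2 pools) and at most 0.646 in other classes. Notch3 was most like Bmp5 (0.96), Pdk4 (0.96) and H19 (0.95). Hes1 was most like Laptm4a (0.97), Akt1s1 (0.96) and Lzts2 (0.96), Hey1 like Tspan6 (0.96), Adarb1 (0.95) and Cyr61 (0.95), and Heyl like Prkg1 (0.96), Pdzrn3 (0.95) and C1galt1 (0.95). Notch2 had the lowest correlations, with Irf2bp2 (0.86), Egr2 (0.85) and Dse (0.84).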

How the data were processed

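Single-cell RNA-seq (10x Genomics 3' v2) was done on 16 pools of osteogenic cultures, each in 2 runs. The authors made the deposited counts, whole-number UMI counts per gene and cell, with Cell Ranger 5.0.0 and GRCm38 (mm10, per the labels), and these were used as deposited. Cells were kept if they had 400 to 6200 genes, no more than 10% of UMIs in mitochondrial genes, and no more than 20% and 15% in genes of the large (Rpl) and small (Rps) ribosomal subunits.

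Cells were placed in compartments by summed mesenchymal and leukocyte markers or by the number of endothelial or glial markers detected, and in classes by the mean z score of marker lists (at least 0.5, a margin of 0.25 and 3 markers detected). Markers, members and gene lists were chosen with earlier results of these data known, and gate limits were set after marker values were seen. Droplets between gates (13961 cells) were left out as possible mixtures, and no doublet caller was run. In the mesenchymal compartment 17952 and in the leukocyte one 9971 cells had no class.

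UMIs were summed per pool and class (at least 10 cells) and tested with edgeR 4.0.16 in R 4.3.3 (filterByExpr, TMM, quasi-likelihood F test, pool as a block). The pairing comes from the design, since classes of 1 pool are of the same mice; deviations from class means correlated within pools with medians of 0.0347 (endothelial-like) to 0.512, and between pools with medians of -0.0737 to -0.0160. SE is the fold change divided by the root of F. Each pool holds several mice in 1 library, so p-values measure the spread between pools. In simulated data 100% of 200 genes changed 1 log2 unit were recovered for MALP-like against LMP-like cells (11735 genes) and 74.0% for T-cell-like against macrophage-like cells (7678 genes). The changed genes were drawn from those with a mean above 20 CPM, with 1 common dispersion and no pool effect. These rates therefore do not cover members below that level, such as Heyl. The test of cells with a Notch3 UMI enumerated all sign changes of the pool differences; the number of draws, 20, was chosen after a single draw was seen to vary. Python 3.11 with scipy 1.17.1 was used for levels.

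The named genes were all members, the pathway genes called with a log2 fold change of at least 1 (up to 6 per comparison, by size), and the 3 genes most like each member, markers left out. Alternatives were RLE normalization, DESeq2 1.42.0, no low-count filter, no block, the second run, a stricter gate, at least 20 cells, leaving out the 10% deepest cells, pool 13, or each pool in turn where 5 or fewer pools were tested. Total UMI scaling, at least 5 cells and a single draw were added after seeing the data. Promoter sequences are RefSeq's (GRCm38.p6), found for 5 of the 8 members and not for Hes1, Hey1 and Heyl. Intervals and limits cover counting error only.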

Additional observations from a re-analysis of the deposited data

Results flagged for a closer look

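Of 13 groups of 4 to 10 pools in which the members' levels were tested with Dixon's ratio at the 95% level, 1 held a pool far from the others: Heyl in monocyte-like cells, at 0.0706 UMIs per 10000 in pool 17 and 0 in the other 8 pools. Chance gives about 1 in 20 such groups. The value is 1 UMI.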

How the results depend on the processing

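Of 560 repeats of a member's fold change under another setting, 525 kept direction and side of the threshold, 13 lost the call, 12 gained it and 10 changed sign. The cause was not tested for any of these. Depth limits Notch4 outside endothelial-like cells and Heyl and Notch3 in leukocyte-like cells, where levels rest on few UMIs, and the endothelial-like, glial-like, T-cell-like and B-cell-like values, which rest on 2 to 4 pools. No pool had 20 endothelial-like cells, so that setting gave no value there.

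The sign changes were in log2 fold changes that did not pass the test under either setting. With the stricter gate, Notch2 had -0.0020 in MALP-like against LMP-like and 0.0517 in OB2-like against OB1-like cells. With scaling by total UMIs, Hey1 had -0.17 in OBP-like against LMP-like cells, Notch2 -0.0679 in OB1-like against OBP-like and 0.0648 in OB2-like against OB1-like cells, and Hes1 0.19 in endothelial-like against LMP-like cells. Hes1 in that last comparison had 0.0216 in the second run, 0.11 with at least 5 cells, and between -0.42 and 0.27 when pools 9, 10 and 18 were left out in turn.

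Without the replicate block (the pool), Hes1 had 0.0548 in OB1-like against OBP-like cells, the genes called in Ocy-like against OB1-like cells were 3050 (4647 with it), and the calls of Hes1 in MALP-like (adjusted p = 0.121, edgeR) and Heyl in endothelial-like cells (adjusted p = 0.0469, edgeR) against LMP-like cells were lost and gained. The block changed no other member's call. In endothelial-like against LMP-like cells 2 members passed with DESeq2 and 2 to 4 with 1 pool left out (5 with all), and 1513 to 2214 genes (2374 with all), fewest without pool 10. Notch3 there had -0.52 with at least 5 cells (adjusted p = 0.577, edgeR), and Jag1 0.66 without the deepest cells (adjusted p = 0.357, edgeR).

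The difference in share between cells with and without a Notch3 UMI was not called, in percentage points, with a single draw for Hey1 (3.42) and Hes1 (1.72) in LMP-like and for Heyl (2.30), Hes1 (3.96) and Jag1 (3.87) in MALP-like cells, in the second run for Hes1 (2.40) and Jag1 (1.06), with the stricter gate for Jag1 (2.29) and without the deepest cells for Hes1 (5.34), all in MALP-like cells. Across pools, the correlation of Notch2 and Hey1 was -0.0615 in the second run, and that of Notch3 and Hey1 0.0902 in the second run, 0.0636 with the stricter gate and 0.0237 without the deepest cells. In the second run the thinned share of cells with a UMI was 1.11% for Notch3, 5.83% for Hey1 and 13.1% for Heyl in glial-like cells, 0.281% for Notch3 and 0.658% for Notch4 in monocyte-like cells, 0.197% for Notch3 and 0.306% for Heyl in granulocyte-like cells, 0.221% for Notch4 in T-cell-like cells and 0 for Notch2 in B-cell-like cells.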
